A study of Mus musculus with 6 samples.

Results

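The genes described here are 8 genes of TAM receptor signalling and apoptotic cell uptake: the receptor kinases Mertk, Axl and Tyro3, their ligands Gas6 and Pros1, the bridging protein Mfge8, the engulfment adaptor Elmo1 and the engulfment receptor Megf10. They were chosen by gene symbol, and all 8 were found, each as 1 feature among the 25206 features of the array table (23185 of them with a gene symbol). The samples were 6 cultures of macrophages drawn into the mouse peritoneal cavity by thioglycollate broth (1 mL of a 4% solution, 4 days before harvest) on the C57BL/6J background, 3 from Tet2-/- mice and 3 from wildtype littermates, here called Tet2-deficient and wild type. The sources used here do not state ages, nor how the Tet2 allele was made or in which cells it is lost. Every culture, controls included, had received 10 ng/mL LPS (lipopolysaccharide, a ligand of toll-like receptor 4) and 2 ng/mL IFNg (interferon gamma) for 10 h in medium with 10% FBS. No unstimulated culture entered the comparison, so all values describe the stimulated state. The replicates are called biological and the design gives 3 mice per group. Total RNA of each culture was read on 1 Affymetrix array, and values are log2 expression.

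Apoptotic cells expose phosphatidylserine, a lipid otherwise kept on the inner face of the membrane, and phagocytes bind it either with receptors of their own or through soluble bridging proteins. Gas6 and Pros1 (protein S) are such bridges: each has a domain that binds phosphatidylserine once vitamin K dependent carboxylation has modified it, and a domain that binds and activates TAM kinases. Gas6 activates Mertk, Axl and Tyro3, whereas Pros1 activates Mertk and Tyro3. Mertk is the TAM kinase best known for apoptotic cell uptake by macrophages, and Axl is known as the one induced by interferons and toll-like receptor ligands. Both are also known to restrain cytokine signalling, in part through the type I interferon receptor and SOCS proteins. Mfge8 (lactadherin) bridges phosphatidylserine to the integrins that pair the alpha v chain with beta 3 or beta 5. Elmo1 acts inside the cell, where with a Dock protein it activates the GTPase Rac and so drives the actin cup that closes around the meal.

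The 2 members with an unadjusted limma p under 0.05, Mfge8 and Gas6, had lower levels in arrays labelled Tet2-deficient than in wild type, and the 250 bases before their RefSeq starts are therefore shown. The sequences are from the RefSeq promoter table of build GRCm38.p6, which matched 7 of the 8 members. They run 5′ to 3′ on the strand of the gene and end at the base before the start. Capitals mark CG dinucleotides, the sites at which most 5-methylcytosine, the substrate of Tet2, lies in mammalian DNA. Mfge8 lies on the minus strand (chr7:79149061-79149310) and so does Gas6 (chr8:13494536-13494785).
Mfge8: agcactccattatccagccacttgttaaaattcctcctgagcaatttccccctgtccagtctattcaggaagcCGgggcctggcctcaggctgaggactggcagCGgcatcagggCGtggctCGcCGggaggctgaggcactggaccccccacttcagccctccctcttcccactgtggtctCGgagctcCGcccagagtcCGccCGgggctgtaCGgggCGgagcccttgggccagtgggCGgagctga
Gas6: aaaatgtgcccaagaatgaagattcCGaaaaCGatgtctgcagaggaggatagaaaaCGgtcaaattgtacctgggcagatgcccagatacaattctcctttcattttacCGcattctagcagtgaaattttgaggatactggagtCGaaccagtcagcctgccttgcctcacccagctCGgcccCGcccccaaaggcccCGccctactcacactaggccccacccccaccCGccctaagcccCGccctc
The Mfge8 window held 12 CG dinucleotides and the Gas6 window 10. Of all 32851 windows of this length in the table, 33.5% held at least as many as Mfge8 and 37.8% at least as many as Gas6, and the median window held 6. Over the windows of the other members the number ran from 5 (Axl, and the second of 2 Elmo1 windows) to 24 (Tyro3), with 7 in Mertk. No methylation was measured here.

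Letters of known motifs were searched on both strands of the same windows. The GC box GGGCGG was present 4 times in the Mfge8 window and 4 times in the Gas6 window. It was found for all 7 members with a window and in 32.7% of all windows. The PU.1 core GAGGAA, a sequence bound by a master factor of macrophages, was present once each in the Mfge8 and Axl windows and in 23.3% of all windows. TTCNNNGAA, the element bound by STAT factors after interferon gamma, occurred in the Pros1 and the second Elmo1 window, and in 7.02% of all windows. For none of the 7 members did the window hold TGANTCA, the AP-1 site, or CCAAT, which 6.75% and 33.8% of all windows held. TATAAA occurred in the first Elmo1 window alone among the members, and in 12.4% of all windows. These matches are descriptions of letters, not of binding.

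Several properties of the arrays bear on the values. Array medians lay between 3.47 and 3.66, and Pearson correlations across features (which are not independent replicates) were 0.983 to 0.991 between arrays. Tet2 itself read no lower where the labels say it is lost (5.55, 5.25 and 5.75 against 5.40, 5.07 and 5.10 in wild type, by limma adjusted p = 0.365). The position of its probes against the deleted part is not given, so it does not check the labels, and every direction below rests on them. Defining macrophage markers were well above the array medians in all 6 arrays, for example Adgre1 at 10.04 to 10.31 and Cd68 at 10.63 to 10.73. The mean log2 level of 7 general macrophage markers was 9.75 to 9.79 in wild type and 10.00 to 10.18 in Tet2-deficient arrays. These markers differed unequally. Itgam (log2 change 0.97) and Cd14 (0.97) passed limma's threshold, and Csf1r (0.58) did not. Adgre1 (0.15), Ptprc (0.07) and Cd68 (0.00) changed less, and Fcgr1 was lower (-0.51, not past the threshold). Lists of neutrophil, dendritic cell, B cell, T and NK cell, mast cell and eosinophil, and platelet and endothelium markers had means between 2.62 and 3.92. Some single markers of these lists lay well above the array medians, such as S100a8 (7.38 to 8.87), Csf3r (7.75 to 8.22), Ccr7 (5.23 to 6.43) and Kdr (5.03 to 6.09). Of the 40 such markers 0 were past the threshold in limma's test, against 0.952% of all features. With 40 markers, 0 calls cannot be set apart from that share. At an unadjusted p under 0.05 there was 1, against 16.0% of all features.

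The study was designed to find genes whose level under inflammatory stimulation depends on Tet2. Mfge8 was the member with the largest difference, at a level lower by 2.00-fold in the Tet2-deficient arrays, and it lay just short of the threshold of 0.05 on the adjusted p. Gas6 was lower by 1.36-fold and Tyro3 by 1.19-fold, and neither passed. Mertk and Axl, the TAM kinases far above the array medians, differed by 1.07-fold and 1.17-fold in opposite directions, and neither passed. By limma with Benjamini-Hochberg adjustment over all features, 0 of the 8 members passed, against 0.952% of all features (240 of 25206, 163 higher and 77 lower). At an unadjusted p under 0.05 there were 2 of the 8, against 16.0% of all features. The groups did not overlap for 4 of the 8, against 22.0% of all features. Their median log2 change was -0.01, with -0.04 over all features. The number of features past the threshold was 27, 114 and 11 without Tet2-deficient replicate 1, 2 or 3 and 155, 67 and 25 without wild-type replicate 1, 2 or 3. The split of higher to lower was 215 to 58 with arrays centred on their medians and 174 to 118 with cyclic loess.

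**Figure D1:**
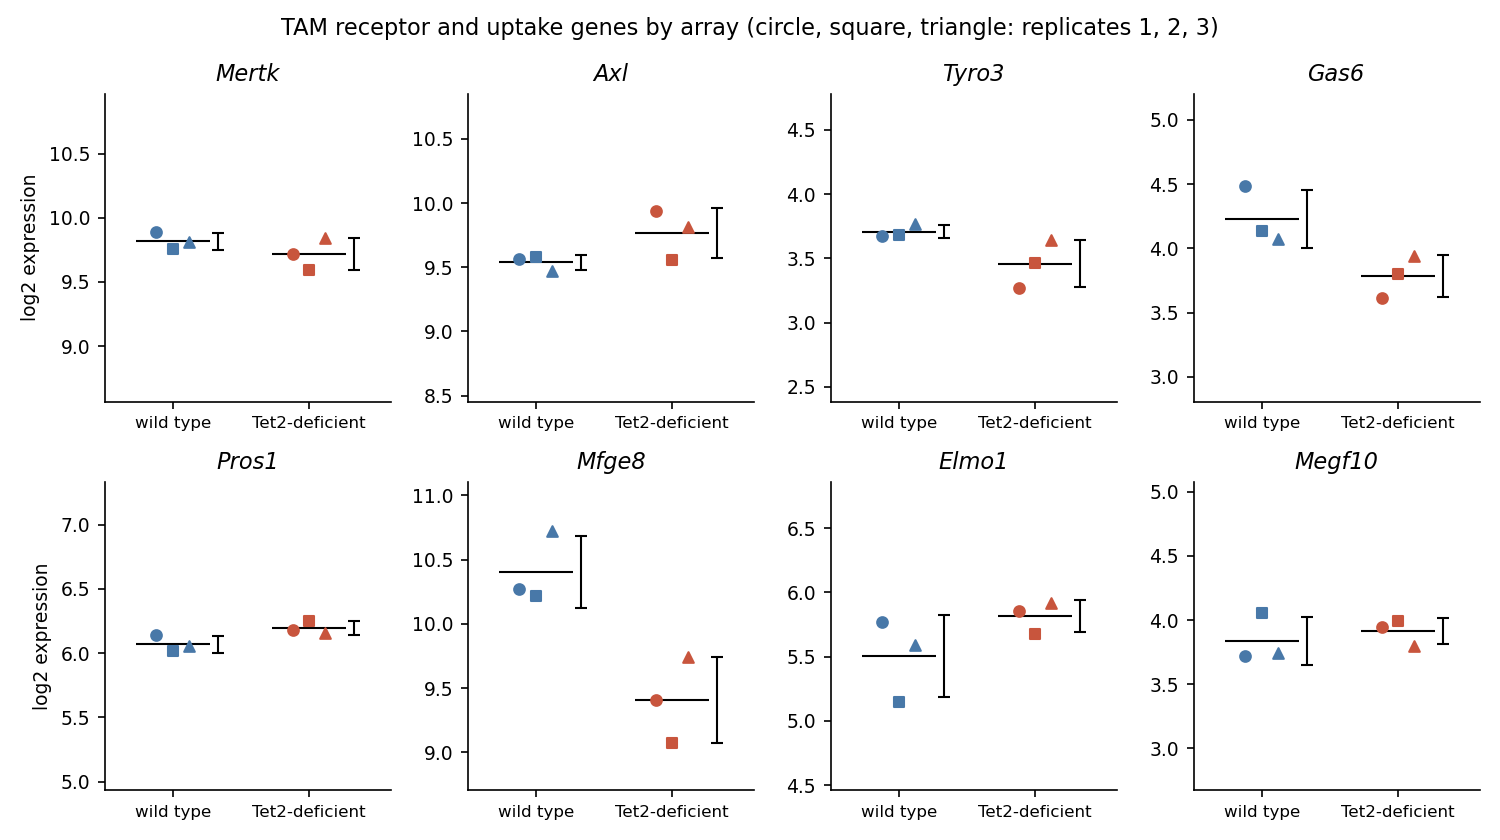
Log2 expression (vertical axis, each panel spanning the same 2.4 log2 units) of the 8 members in each array; circles, squares and triangles are replicates 1, 2 and 3, horizontal lines group means and bars 1 SD (n = 3). The groups are separate for Mfge8, Gas6, Tyro3 and Pros1, with the widest gap for Mfge8, and overlap for Mertk, Axl, Elmo1 and Megf10.

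Among the receptors, Mertk had log2 levels of 9.89, 9.75 and 9.81 in wild-type replicates 1, 2 and 3 and of 9.72, 9.59 and 9.84 in Tet2-deficient replicates 1, 2 and 3. Tet2-deficient replicates 1 and 2 lay below every wild-type array, while replicate 3 lay among them. The log2 change was -0.10 ± 0.12 (limma SE, n = 3 arrays per group, adjusted p = 0.746), with a 95% interval of -0.37 to 0.17. Without 1 array the Mertk change ran from -0.16 (Tet2-deficient replicate 3 left out) to -0.04 (Tet2-deficient replicate 2 left out), and it was -0.07 without wild-type replicate 1. The arrays thus bound a difference of Mertk in either direction to well within a log2 unit but do not show that it was equal. Mertk is the receptor whose loss is known to impair clearance of apoptotic cells by macrophages.

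Axl had log2 levels of 9.56, 9.58 and 9.47 in wild type and 9.94, 9.55 and 9.81 in Tet2-deficient arrays. Tet2-deficient replicates 1 and 3 lay above every wild-type array, while replicate 2 lay among them. The log2 change of 0.23 ± 0.13 was not past the threshold (limma adjusted p = 0.444, 95% interval -0.07 to 0.53). Without Tet2-deficient replicate 1 the Axl change was 0.15, and without Tet2-deficient replicate 2 it was 0.34.

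Tyro3, the TAM kinase best known from the nervous system, was close to the array medians. There a level may not be above background, and a difference can be understated. Its log2 levels were 3.67, 3.68 and 3.77 in wild type and 3.27, 3.46 and 3.64 in Tet2-deficient arrays. All 3 Tet2-deficient arrays lay below all 3 wild-type arrays, but the highest of them, replicate 3, was just under the lowest wild-type array. The log2 change was -0.25 ± 0.13 (limma adjusted p = 0.393, 95% interval -0.54 to 0.04), and -0.16 without Tet2-deficient replicate 1.

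Between the ligands, Gas6 had log2 levels of 4.49, 4.13 and 4.07 in wild type and 3.61, 3.80 and 3.94 in Tet2-deficient arrays. The groups did not overlap, wild-type replicate 1 was the highest and Tet2-deficient replicate 1 the lowest. The Tet2-deficient values were close to the array medians, where, as for Tyro3, a level may not be above background. The size of the Gas6 difference, and of that of Gas6 from Pros1 given below, is therefore uncertain and can be understated. The log2 change of -0.45 ± 0.15 had a 95% interval of -0.79 to -0.11 and an unadjusted p = 0.0148, and did not pass after adjustment over all features (limma adjusted p = 0.187). Without wild-type replicate 1 the Gas6 change was -0.32, and under all 13 alternatives its adjusted p was 0.0963 to 0.404. Gas6 is the ligand shared by all TAM kinases and the only one known to activate Axl.

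Pros1, the anticoagulant protein S, had log2 levels of 6.14, 6.01 and 6.06 in wild type and 6.18, 6.25 and 6.15 in Tet2-deficient arrays. The groups were separated by a narrow gap, with the Tet2-deficient arrays higher. The log2 change was 0.12 ± 0.11 (limma adjusted p = 0.647, 95% interval -0.13 to 0.38).

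The bridging protein Mfge8 had log2 levels of 10.28, 10.21 and 10.72 in wild type, with a mean of 10.40 ± 0.28 (SD, n = 3), and of 9.41, 9.07 and 9.74 in Tet2-deficient arrays, with a mean of 9.41 ± 0.33. Every Tet2-deficient array lay below every wild-type array, and the third replicate was the highest of its group in both genotypes. The log2 change was -1.00 ± 0.20, with a 95% interval of -1.44 to -0.56 and an unadjusted p = 5.88e-04. Its limma adjusted p was 0.0533, and 277 of the 25206 features had a smaller p. In bulk RNA, fewer cells that make a transcript and less transcript per cell cannot be told apart. The change kept its sign under all 13 alternatives, from -1.16 to -0.83, though some of them leave the change itself as in the main fit. Mfge8 passed under 5 of them, whose lowest limma adjusted p was 0.0150. Leaving out any 1 array gave adjusted p values of 0.0807 to 0.178, so Mfge8 was past the threshold in 0 of these 6 fits.

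**Figure D2:**
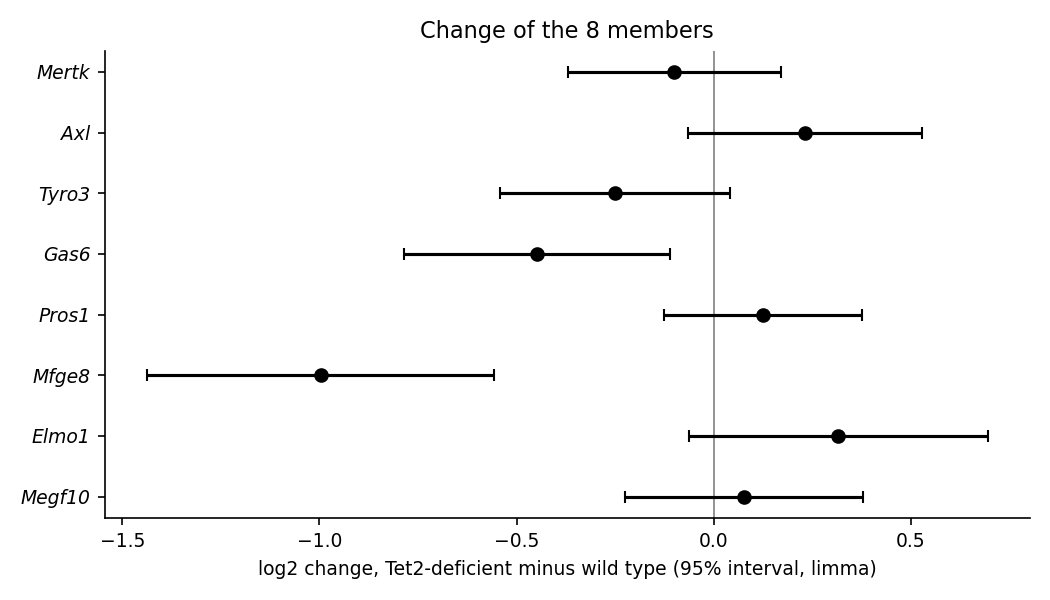
Log2 change of each member, Tet2-deficient minus wild type (horizontal axis), with 95% intervals from limma (n = 3 arrays per group). The intervals of Mfge8 (-1.44 to -0.56) and Gas6 (-0.79 to -0.11) lie below 0, and those of the other 6 genes include 0; no member passed an adjusted p of 0.05.

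The engulfment adaptor Elmo1 had log2 levels of 5.77, 5.15 and 5.59 in wild type and 5.86, 5.68 and 5.92 in Tet2-deficient arrays. Wild-type replicate 2 was low against the other 5 arrays, and wild-type replicate 1 lay within the Tet2-deficient range. The log2 change was 0.32 ± 0.17 (limma adjusted p = 0.405, 95% interval -0.06 to 0.70), and 0.14 without wild-type replicate 2.

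Megf10, a relative of the fly engulfment receptor Draper that is best known from astrocytes, had log2 levels of 3.72, 4.05 and 3.74 in wild type and 3.95, 4.00 and 3.80 in Tet2-deficient arrays. The groups overlapped, and all values were close to the array medians. The log2 change was 0.08 ± 0.13 (limma adjusted p = 0.832, 95% interval -0.23 to 0.38), with 0.02 without wild-type replicate 1 and 0.18 without wild-type replicate 2.

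Differences between 2 genes within the same array do not depend on how arrays are centred, and show whether a pair of genes differed unequally between genotypes. Their absolute size compares different probes and carries no meaning. Mertk minus Axl was 0.32, 0.18 and 0.34 in wild type and -0.21, 0.04 and 0.03 in Tet2-deficient arrays. All Tet2-deficient values lay below all wild-type values, with a difference of -0.33 between the group means, so Mertk was lower relative to Axl in the Tet2-deficient arrays. Gas6 minus Pros1 was -1.66, -1.88 and -1.98 in wild type and -2.57, -2.46 and -2.21 in Tet2-deficient arrays. These groups did not overlap either, and their means differed by -0.57, toward Pros1. Axl minus Tyro3 did not overlap (difference of means 0.48, with Tet2-deficient replicate 1 the highest), while Mertk minus Tyro3 overlapped (0.15). Tyro3 was close to the array medians, so the sizes of these last differences are uncertain. No test was made of any pair, since the pairs come from genes chosen with earlier results known. Of all single features, 22.0% did not overlap between the groups, and the share over pairs of features was not computed. The separations of these pairs are therefore descriptions.

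**Figure D3:**
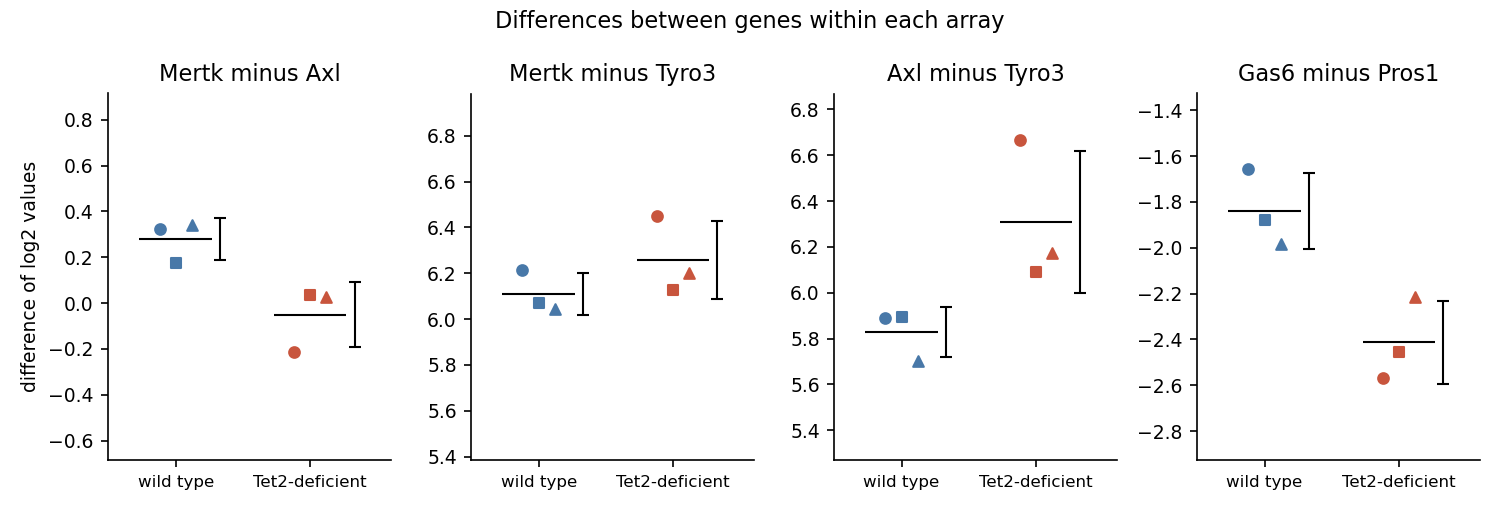
Difference of log2 values between 2 genes within each array (vertical axis, each panel spanning 1.6 log2 units) for 4 pairs; symbols are replicates 1 to 3, lines group means and bars 1 SD (n = 3). Mertk minus Axl and Gas6 minus Pros1 are lower, and Axl minus Tyro3 higher, in every Tet2-deficient array than in any wild-type array, whereas Mertk minus Tyro3 overlaps.

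Genes that act with the 8 members were described by lists of their roles. Of 108 other uptake genes analysed here 6 were higher, 0 lower and 102 not past the threshold in limma's test, against 0.647% of all features higher and 0.305% lower. At an unadjusted p under 0.05 there were 34 of the 108, against 16.0% of all features. Their median log2 change was 0.09, with -0.04 over all features. The lists were chosen with earlier results of these data known, and the shares over all features include features of low level. The counts are therefore descriptions, not a test of uptake genes as a set. The 6 genes higher in the main fit were the receptors Timd4, Itgav and Cd14, the bridging protein Thbs1, and Dock5 and Abca1 of the engulfment list. Of the 108, the number higher was 1, 4 and 0 without Tet2-deficient replicate 1, 2 or 3. It was 6, 3 and 1 without wild-type replicate 1, 2 or 3. These were not always genes of the main fit. The 1 without Tet2-deficient replicate 1 was C4b (limma adjusted p = 0.0394). The 6 without wild-type replicate 1 included Cd24a (limma adjusted p = 0.0140) and lacked Itgav.

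Among 19 other receptors for phosphatidylserine or apoptotic cells, 3 rose, 0 fell and 16 did not pass, with a median log2 change of 0.08. The integrin chain Itgav, alpha v, through which Mfge8 binds phagocytes, had log2 levels of 7.71, 7.79 and 7.59 in wild type and 8.43, 8.47 and 8.55 in Tet2-deficient arrays. All Tet2-deficient arrays were higher, by 1.72-fold (log2 change 0.79 ± 0.12, limma adjusted p = 0.0219). Its partners Itgb5 (-0.28 ± 0.12, limma adjusted p = 0.291) and Itgb3 (-0.10 ± 0.14, adjusted p = 0.789), named after their values were seen, did not pass. Itgb3, at 3.79 to 4.22, was close to the array medians, where a level may not be above background. Thus within the Mfge8 route the soluble bridge was at a lower level and the chain Itgav at a higher one, and only Itgav passed. Itgb5, like Mfge8, was lower in every Tet2-deficient array than in any wild-type array.

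Timd4, a receptor that tethers phosphatidylserine directly, had log2 levels of 8.38, 7.94 and 7.82 in wild type and 8.99, 9.33 and 9.37 in Tet2-deficient arrays. It rose by 1.19 ± 0.17 on the log2 scale (limma adjusted p = 0.0219). Cd14, a lipopolysaccharide co-receptor that also tethers apoptotic cells, rose by 0.97 ± 0.13 (adjusted p = 0.0152). The receptors Stab1 (stabilin 1; 0.35 ± 0.14, adjusted p = 0.248), Adgrb1 (BAI1, which signals to Elmo1; -0.05 ± 0.12, adjusted p = 0.877) and Scarf1, a scavenger receptor that binds C1q (0.42 ± 0.12, adjusted p = 0.147), did not pass. Cd300lb, an activating receptor for phosphatidylserine, had -0.78 ± 0.23 (limma adjusted p = 0.143). Adgrb1, at 3.34 to 3.59, was close to the array medians, where a level may not be above background.

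Among 13 other bridging and opsonin proteins, 1 rose, 0 fell and 12 did not pass, with a median of 0.01. The one that rose was Thbs1, thrombospondin 1, which links apoptotic cells to Cd36 and alpha v integrins. Its log2 levels were 10.06, 9.98 and 9.47 in wild type and 11.15, 11.20 and 11.35 in Tet2-deficient arrays, a rise of 1.40 ± 0.17 (limma adjusted p = 0.0119). Complement C4b had a log2 change of 1.37 ± 0.32 (adjusted p = 0.0784), with levels of 6.73, 6.41 and 6.04 against 6.95, 8.28 and 8.07. Annexin A1 (Anxa1), which apoptotic cells expose and release, had -0.57 ± 0.15 (adjusted p = 0.107), and the complement chain C1qa had -0.03 ± 0.15 (adjusted p = 0.956). Thbs1 and Mfge8, bridging proteins that reach the same alpha v integrins, therefore differed in opposite directions, with only Thbs1 past the threshold.

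The engulfment list held 19 genes, of which 2 rose, 0 fell and 17 did not pass, with a median of 0.15. Dock5, a Rac activator of the family of Dock1, had log2 levels of 5.00, 5.01 and 5.08 in wild type and 6.15, 5.91 and 6.19 in Tet2-deficient arrays. Its rise of 1.05 ± 0.12 (limma adjusted p = 0.0102) was larger than the range within either group. Dock1, the partner of Elmo1, had 0.50 ± 0.15 (adjusted p = 0.152), the adaptor Crkl 0.50 ± 0.17 (adjusted p = 0.187) and the GTPase Rac1 0.13 ± 0.12 (adjusted p = 0.641). Abca1, a cholesterol exporter induced in phagocytes that have taken up apoptotic cells, rose by 1.06 ± 0.15 (adjusted p = 0.0162).

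None of these 6 calls held in every fit with 1 array left out, fits in which the number of all features past the threshold was 11 to 155 against 240. The changes themselves moved little: 0.73 to 0.83 for Itgav, 1.07 to 1.35 for Timd4, 0.94 to 1.19 for Abca1, 0.89 to 1.03 for Cd14, 1.00 to 1.14 for Dock5 and 1.21 to 1.51 for Thbs1. Itgav lost its call without any 1 of the 6 (adjusted p = 0.0518 to 0.111), and Timd4 without any 1 but wild-type replicate 1 (0.0122 to 0.108). Abca1 lost its call without Tet2-deficient replicate 1 or 3 or wild-type replicate 2 or 3 (0.0129 to 0.0861). Cd14 (0.0287 to 0.0783) and Dock5 (0.0263 to 0.0668) lost theirs without Tet2-deficient replicate 1 or 3 or wild-type replicate 3. For Thbs1 it was Tet2-deficient replicate 1 or 3 (0.0122 to 0.0669). All kept their sign in limma fits under every one of 13 alternatives, some of which leave the change itself as in the main fit.

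**Figure D4:**
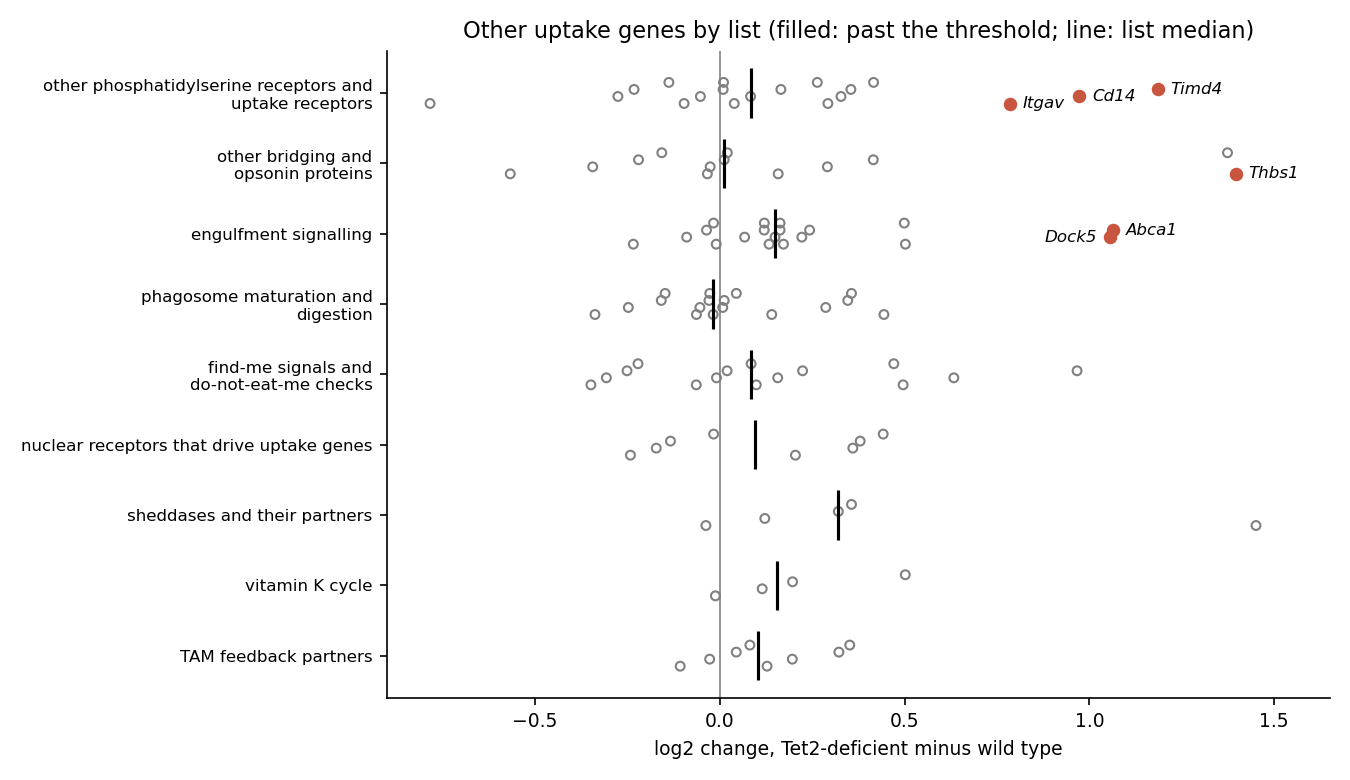
Log2 change, Tet2-deficient minus wild type (horizontal axis), of 108 other uptake genes in 9 lists; each point is a gene, filled where limma's adjusted p was under 0.05, and vertical lines are list medians. The 6 filled points all lie at 0.79 or above, in the lists of receptors (3), bridging proteins (1) and engulfment genes (2).

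Lists tied more closely to the TAM system (nuclear receptors, sheddases, vitamin K cycle and feedback partners) held 0 genes past the threshold by limma, which in lists this small cannot be set apart from the 0.952% of all features. Their counts at an unadjusted p under 0.05 are to be read against 16.0% of all features. Nuclear receptors and factors that drive uptake genes had a median of 0.09 over 8 genes, with 2 at an unadjusted p under 0.05. They were Ppard (0.38 ± 0.12, adjusted p = 0.179) and Rxra (0.36 ± 0.12, adjusted p = 0.176), receptors known to switch on Mertk and bridging genes in macrophages. Nr1h3 (LXR alpha, an activator of Mertk and Abca1) had -0.02 ± 0.22 (adjusted p = 0.981) and Pparg -0.13 ± 0.12 (adjusted p = 0.633).

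The 5 sheddases and partners, which cut Mertk and Axl from the cell surface or control that cut, had a median of 0.32, and 3 had an unadjusted p under 0.05. Adam17, the protease that sheds Mertk, had 0.12 ± 0.18 (adjusted p = 0.799), and Rhbdf2, its trafficking partner, 0.36 ± 0.12 (adjusted p = 0.196). Timp3, an inhibitor of Adam17, had 1.45 ± 0.41 (adjusted p = 0.132), with log2 levels of 2.62, 2.69 and 2.73 in wild type and 4.20, 5.16 and 3.05 in Tet2-deficient arrays. The wild-type values, and that of Tet2-deficient replicate 3, lay below the array medians, where a level may not be above background, so the size of this difference is uncertain. The Tet2-deficient values were all higher but spread over more than 2 log2 units.

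In the vitamin K cycle, which carboxylates Gas6 and Pros1, 0 of 4 genes passed (1 at an unadjusted p under 0.05) with a median of 0.16. Nqo1, a quinone reductase, had 0.50 ± 0.17 (limma adjusted p = 0.196) and Vkorc1, the epoxide reductase, 0.20 ± 0.14 (adjusted p = 0.552). The wild-type values of Nqo1 (3.43, 3.70 and 3.92) were close to the array medians, so the size of its difference is uncertain. Of 8 feedback partners of the TAM kinases, 2 had an unadjusted p under 0.05 and the median was 0.10. The receptor chain Ifnar1, with which Axl signals, had 0.35 ± 0.13 (adjusted p = 0.214), and the suppressor Socs3 0.32 ± 0.14 (adjusted p = 0.285).

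A few markers of other macrophage states and cell types also passed limma's threshold, which 0.647% of all features passed with a higher level. Of 10 resident peritoneal macrophage markers analysed, 2 were past it (Timd4 itself and Prg4). All 10 had a positive change, as had 10607 of the 25206 features. Their mean log2 level was 5.39, 5.14 and 5.21 in wild type and 5.68, 5.96 and 5.90 in Tet2-deficient arrays. Prg4 (2.46), Timd4 (1.19), Icam2 (0.99) and Vsig4 (0.76) carried that difference of means, and the median change was 0.18. The other markers of the list, from Cd93 (0.01) to Gata6 (0.23), overlapped between the groups. Gata6, which defines that cell type, stayed close to the array medians (3.51 to 3.79 in wild type and 3.59 to 4.42 in Tet2-deficient arrays). Monocyte markers, of which 1 of 6 rose (Fn1), had means of 5.61 to 5.77 against 6.05 to 6.36 and a median change of 0.17. Fn1 (1.78) and Ly6c2 (1.01, not past the threshold) carried that difference of means, whereas Ccr2 (0.22), Plac8 (0.12), Chil3 (-0.06) and Cd177 (-0.02) overlapped between the groups. Of 12 mesothelium and fibroblast markers 1 rose (Pdgfrb), with means of 3.85, 4.27 and 3.94 in wild type and 4.27, 4.76 and 4.06 in Tet2-deficient arrays, which overlapped. Tet2-deficient replicate 2, the highest of these, was also the array with the lowest Mfge8 and the highest Timp3. Within this list Dcn (1.26, not past the threshold) was, like Pdgfrb (0.91), higher in every Tet2-deficient array. Col1a2 (0.81), Col1a1 (0.59), Pdgfra (0.54) and Col3a1 (0.41) had positive changes but overlapped between the groups. The remaining genes of the list changed by -0.21 (Wt1) to 0.10 (Msln) and overlapped. The part of these cell types in the differences of Mfge8, Timd4, Thbs1 and the other genes was not tested.

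**Figure D5:**
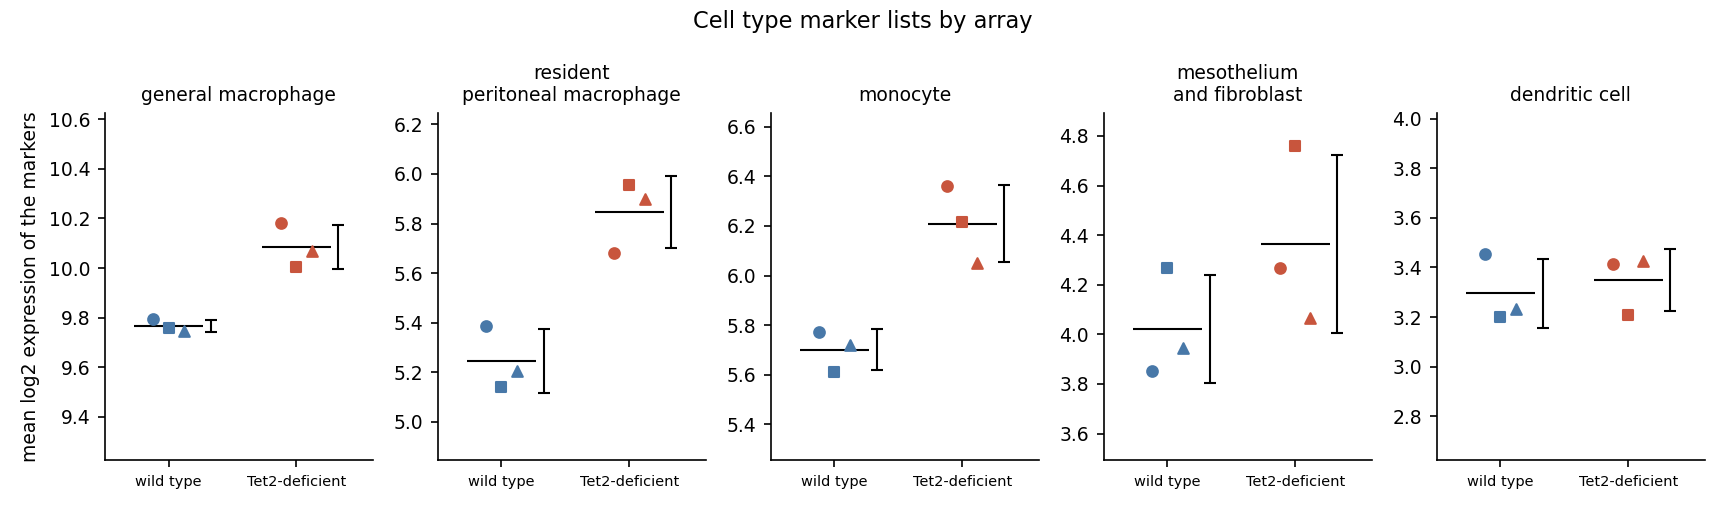
Mean log2 expression (vertical axis, each panel spanning 1.4 log2 units) of 5 cell type marker lists in each array; symbols are replicates 1 to 3, lines group means and bars 1 SD (n = 3). General macrophage, resident peritoneal macrophage and monocyte lists are higher in all Tet2-deficient arrays, whereas mesothelium and fibroblast and dendritic cell lists overlap.

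Among 11765 other features with a symbol and a mean above the median feature, those whose centred profile over the 6 arrays was most like that of Mfge8 were Sass6 (root mean square difference 0.11 log2 units), which acts in centriole assembly, the glycosyltransferase Gcnt1 (0.14) and the myeloid C-type lectin Clec4a3 (0.14). Their log2 changes were -1.06 (Sass6), -0.79 (Gcnt1) and -1.11 (Clec4a3). Since the 3 were chosen for their likeness over all 6 arrays, their direction and the order of their arrays follow from the choice and were not tested. With 6 arrays and so many features, close profiles are found for many genes, and the likeness is a description.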

How the data were processed

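The deposited log2 values come from RMA, run by the authors with affy 1.36.1, per the submitters' processing notes. The sources used here state neither the array type nor the probe sets or genome build. Because RMA gives the probe intensities of arrays a common distribution, a shift of all genes alike would be hidden. The summarised values still differed somewhat between arrays, with medians of 3.47 to 3.66. Arrays were used without further normalization. Symbols came from the platform annotation (23185 features with 1 symbol, 0 with several, 2021 with none).

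The difference between genotypes was estimated for each of 25206 features in a linear model with moderated variances (limma 3.58.1, R 4.3.3), two-sided. Benjamini-Hochberg adjustment ran over the whole table, with a threshold of 0.05, and 95% intervals came from the moderated fit. The prior had 5.31 degrees of freedom. No permutation test was used, since 3 arrays against 3 allow no exact two-sided p under 0.1. The script was tested on simulated data. Depth does not apply to arrays, and their number limits the precision.

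The members and lists were chosen with earlier results of these data known. Named genes were the members, Tet2, every gene of a list past the threshold, the next 2 of each list by p, 9 fixed genes (Timd4, Stab1, Adgrb1, C1qa, Dock1, Rac1, Nr1h3, Pparg, Adam17), defining markers, and the 3 features most like the member with the largest change. Itgb3 and Itgb5 were named with their values known. In all, 13 alternatives were run: array median centring, cyclic loess, features above the median level, features with a symbol, the replicate number as a block, a trended and robust prior, array weights, and each array left out.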

Additional observations from a re-analysis of the deposited data

How the results depend on the processing

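The 8 member changes kept their sign in all 104 fits of a member under an alternative. The level filter, the symbol filter, the replicate block and the trended prior leave the change as in the main fit. Its sign could therefore not move in those settings. Of the 104 fits, 99 stayed short of the threshold, and the 5 that passed were all Mfge8. It passed with cyclic loess (-1.02, adjusted p = 0.0446), with features above the median level only (-1.00, 0.0235), with a trended and robust prior (-1.00, 0.0150), with array weights (-0.95, 0.0476) and with the replicate block (-1.00, 0.0261), so the number of members past the threshold was 1 there and 0 elsewhere. Features past the threshold numbered 846 above the median level, 814 with the trended prior, 498 with array weights and 11 to 155 with 1 array left out. Other uptake genes higher numbered 11 with the trended prior and 0 to 6 with 1 array left out, and 1 gene, Anxa1, was lower above the median level and with the trended prior. The median change of the other uptake genes was 0.16 with arrays centred on their medians, with 0.03 over all features. Fewer features tested, or fewer arrays, is part of how the level filter and the fits without 1 array were built; for the other settings the cause was not tested. Same-numbered arrays of the 2 genotypes correlated by 0.08, 0.19 and 0.02 in their deviations from group means. Of the 6 arrays, 4 correlated best with their own number. These values do not decide whether same-numbered arrays were pairs, and the main fit treated them as unpaired. For Mfge8 the choice matters, since its SE was 0.12 with the replicate block and 0.20 without. The replicate block gave 230 features past the threshold against 240.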

Other observations

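Once a meal is closed in, it is digested in a phagosome whose membrane is decorated by autophagy proteins and acidified by fusion with lysosomes. Of 17 genes of this step 0 passed limma's threshold, 4 had an unadjusted p under 0.05 (16.0% of all features did), and the median log2 change was -0.02. The smallest p values were those of Cybb, the catalytic chain of the phagocyte NADPH oxidase, with log2 levels of 11.31, 11.21 and 11.18 in wild type and 11.55, 11.60 and 11.58 in Tet2-deficient arrays (change 0.35 ± 0.11, adjusted p = 0.171), and of the glucose transporter Slc2a1 (0.44 ± 0.15, adjusted p = 0.198).

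Of 15 genes for find-me signals and do-not-eat-me checks 0 passed limma's threshold, 6 had an unadjusted p under 0.05 (again against 16.0%), and the median was 0.09. Cd24a, a surface glycoprotein known as a do-not-eat-me signal on other cells, lay as close to the threshold as Mfge8 and in the opposite direction. Its log2 levels were 6.49, 5.82 and 5.84 in wild type and 7.07, 6.84 and 7.14 in Tet2-deficient arrays, with no overlap (change 0.97 ± 0.19, adjusted p = 0.0534). Gpr132, a receptor for lysophosphatidylcholine released by dying cells, had 0.47 ± 0.12 (adjusted p = 0.102).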
